A study of Homo sapiens with 60 samples.

Results

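TXNIP, ARRDC4, the glucose transporters SLC2A1 and SLC2A3, and the transcription factor subunits MLX, MLXIP and MLXIPL were examined in HT29 cells exposed to plant extracts. These 7 genes were taken by name from the 60675 gene entries of the count table, and their levels were read in all 60 labelled libraries. HT29 is an established human colorectal adenocarcinoma line, and every group held these same unmodified cells, with agent and dose as the labelled differences. The library names also carry codes that the labels do not explain. The doses of an extract share a code, while the vehicle and pairs of extracts have codes of their own, so code and agent cannot be told apart against the vehicle. RNA was sequenced 24 h after treatment with an ethanol extract or with the solvent dimethyl sulfoxide (DMSO). The vehicle group had 3 libraries, at 0.1% DMSO by the labels and 2% by the text on the series. Extracts of Cinnamomi Cortex, Astragali Radix, Paeoniae Radix, Rehmanniae Radix Preparata and Cnidii Rhizoma were each given at 500 (high), 100 (medium) and 20 µg/mL (low), with 3 libraries a dose. Doses of Angelicae Gigantis Radix were 320, 64 and 12.8 µg/mL, with 2 libraries each. The formulas Sagunja-tang and Samul-tang, at 500, 100 and 20 µg/mL, had 1 library a dose. Whether replicate libraries derive from independent cultures is not stated, and the p-values therefore reflect a spread that may be purely technical. The labels name the medium as DMEM with serum, without its glucose content.

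TXNIP, the thioredoxin-interacting protein, is an alpha-arrestin that binds thioredoxin and promotes removal of glucose transporters from the cell surface. ARRDC4 is the family member closest to it and also lowers glucose uptake. Both are textbook targets of sugar-sensing transcription factors, in which MLX pairs with MLXIP (MondoA) or with MLXIPL (ChREBP), and which respond to glucose once it has been phosphorylated in the cell. SLC2A1 encodes GLUT1, the basal glucose transporter of most proliferating and tumour cells, and SLC2A3 encodes GLUT3, best known from neurons.

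The MLX partners bind pairs of E-box-like hexamers, so the promoter letters of the members are shown before their values. RefSeq promoters (GRCh38.p14, from 250 bases before the start to 50 after it) were found for 6 of the 7 members, and SLC2A3 had no entry. TXNIP had 2 entries, and the entry not shown held none of the motifs searched. In the lines below, each read 5′ to 3′ on the gene's strand, capitals mark the motifs found.
TXNIP: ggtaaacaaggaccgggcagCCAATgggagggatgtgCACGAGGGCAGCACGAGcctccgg
ARRDC4: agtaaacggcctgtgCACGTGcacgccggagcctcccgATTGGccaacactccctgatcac
MLX: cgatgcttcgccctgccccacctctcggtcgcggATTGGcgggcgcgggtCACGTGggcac
The TXNIP stretch lies at chr1:145996644-145996704 on the minus strand, 125 to 65 bases before the start. Its long run of capitals is the paired motif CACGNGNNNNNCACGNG, searched on both strands with the TXNIP element known from textbooks in view, and 20 of 34796 promoters (0.0575%) held a match. The ARRDC4 stretch, chr15:97960478-97960538 on the plus strand and 225 to 165 bases before the start, holds the single E box CACGTG. So does the MLX stretch, chr17:42567000-42567060 on the plus strand, 100 to 40 bases before the start, and 7.2% of promoters held that E box. The E box can be part of a paired match. The remaining capitals mark the CCAAT box (ATTGG on the other strand), present in 34.6% of promoters. The window of MLXIP held a CCAAT box and neither E-box form, and that of MLXIPL held none of the motifs. The SLC2A1 window lies wholly inside the GENCODE gene given with its values, so it is not described. The stretches shown above lie outside their GENCODE genes. A match of letters is no evidence of binding.

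The libraries held 17798492 to 31134188 counts. Levels are counts-per-million values (CPM), scaled to library totals. Changes are log2 values ± standard error (SE) from edgeR, which rescales libraries by a trimmed mean (TMM), and a gene is said to be called, to rise or to fall where the adjusted p over all genes tested was below 0.05. The Astragali Radix high dose libraries stood apart. Their mean correlation with each other was 0.9549, against 0.9966 or more in the other replicated groups, their TMM factors were 0.77 to 0.838 against 0.972 to 1.04, and mitochondrial genes took 1.99% to 7.82% of their counts against 6.91% to 12.3%. They were therefore tested only beside the group they were compared with, and scaling them by library totals lowered the median gene by 0.36 (log2) against the low dose. Colon epithelium markers fitted the label: 8 of 12 had a median of 5 CPM or more, with KRT8 at 6448 CPM, although CDX1 had a median under 1 CPM. The 12 markers summed to 13650 to 19720 CPM in the Astragali Radix high libraries and 9880 to 13580 CPM elsewhere. Most of that sum was KRT8 and KRT18, and the markers did not move together. From the low to the high dose of Astragali Radix, KRT8, KRT18, KRT20, EPCAM and CEACAM5 were called higher. VIL1 (185 to 79.3 CPM) and CDX2 (4.59 to 1.29 CPM) were called lower. Of 5 blood markers 4 were under 1 CPM, the exception being LYZ, which epithelial cells also make. The 5 fibroblast and endothelial markers summed to 4.83 to 10.45 CPM in the Astragali Radix high libraries and 2.259 to 3.977 CPM elsewhere. COL1A2 was at 0 at the median, while COL1A1 was called higher from the low to the high dose of Astragali Radix. COL1A1 went from 1.36 to 4.91 CPM (2.20 ± 0.32, adjusted p = 0.00251). The part of these shifts in any result was not tested.

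Per unit of transcript length, SLC2A1 was by far the most abundant member, with a median of 354 TPM over the 60 libraries (transcripts-per-million, with exon lengths of GENCODE v29). MLX followed at 87.8 TPM, TXNIP at 40.4, MLXIP at 37.7 and ARRDC4 at 6.80. MLXIPL was barely detected at 0.378 TPM, from 2 to 28 counts a library. SLC2A3 had no count in 57 of 60 libraries and a single count in the other 3, which lay in the Rehmanniae Radix Preparata and Astragali Radix high groups. In those 57 libraries a count of 0 allows a level of up to 0.0964 to 0.149 CPM, depending on the library, and covers counting error only. SLC2A3 passed no filter on low counts and is not tested below. Its near copy SLC2A14 was at 0 in every library. HT29 cells thus held GLUT1 as the transporter RNA of this pair, with the factor RNA of MLX and MLXIP and little of MLXIPL.

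Between the high and the low dose, 4 of the 6 tested members were called with Astragali Radix, where 40.1% of all genes were called (21.9% higher and 18.3% lower). With Paeoniae Radix 3 were called, beside 9.51% of all genes (5.44% higher and 4.06% lower). With Cnidii Rhizoma 2 were called, beside 23.7% (12.1% higher and 11.6% lower), and this count was 0 or 1 without any 1 of its libraries other than low replicate 3. With Rehmanniae Radix Preparata 2 were called, beside 1.43% (0.813% higher and 0.620% lower), and with Cinnamomi Cortex 1 (2 with the replicate number as a block), beside 6.08% (3.27% higher and 2.81% lower). With Angelicae Gigantis Radix 0 were called by edgeR, beside 1.20% of all genes (0.680% higher and 0.524% lower), 3 had an unadjusted p under 0.05, and DESeq2 called 0. TXNIP and SLC2A1 were each called with 4 extracts, ARRDC4 with 2, MLX and MLXIPL with 1 each, and MLXIP with none. When all 54 replicated libraries, Astragali Radix high included, shared an estimate of spread, the counts fell to 1 for Paeoniae Radix and to 0 for Cnidii Rhizoma, Rehmanniae Radix Preparata and Cinnamomi Cortex, while the fitted changes of TXNIP with these extracts moved by less than their SE.

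**Figure D1:**
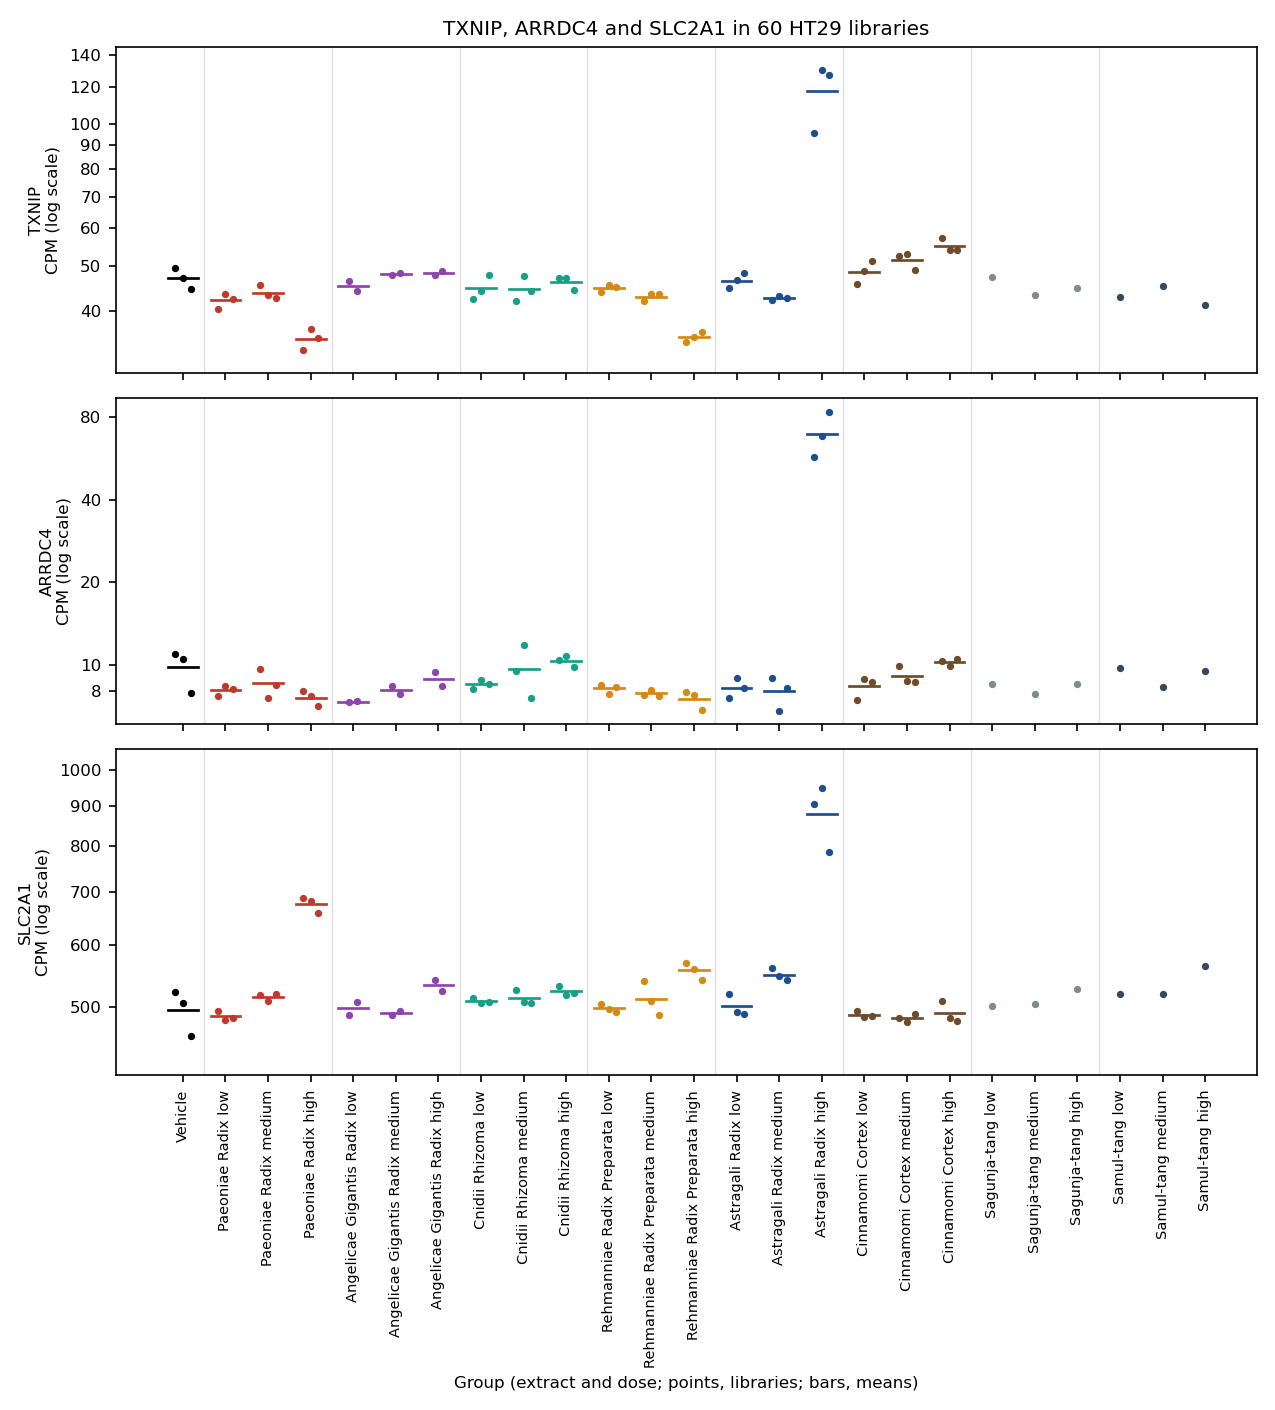
TXNIP, ARRDC4 and SLC2A1 in CPM (log scale) by group. Points are single libraries and bars are group means. The Astragali Radix high libraries lie above all others in each panel, TXNIP is lowest at the Paeoniae Radix and Rehmanniae Radix Preparata high doses, and SLC2A1 is next highest at the Paeoniae Radix high dose.

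TXNIP (ENSG00000265972, GRCh38 chr1:145992435-145996600, minus strand) moved in opposite directions under different extracts. It ranged from 33.1 to 130 CPM, and its median over the 60 libraries was 44.9 CPM. With Astragali Radix its 3 high dose libraries were at 95.6, 130 and 127 CPM and the low dose libraries at 44.8, 46.5 and 48.1 CPM. These groups lay far apart, and the medium dose, at 42.3, 43.0 and 42.6 CPM, lay below both. The fitted change from low to high was 1.72 ± 0.19 (adjusted p = 0.00109), with 6.81% of all genes rising by more. It ran from 1.60 to 1.88 when any library of these groups was left out and was 1.34 by library totals. In bulk RNA of this kind, a change in the share of cells that express a gene and a change in RNA per cell cannot be told apart.

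The Paeoniae Radix high dose libraries had TXNIP at 33.1, 36.6 and 35.1 CPM, against 40.4, 43.5 and 42.6 CPM at the low dose. All 3 high libraries lay below all 3 low ones. The change was -0.25 ± 0.05 (adjusted p = 0.000136), and 14.2% of all genes fell by more. The Rehmanniae Radix Preparata high libraries were at 34.4, 35.3 and 36.2 CPM and the low ones at 44.0, 45.4 and 45.0 CPM. This gap was also free of overlap, with a change of -0.33 ± 0.04 (adjusted p = 5.43e-06), and 6.61% of all genes fell by more there. With Cinnamomi Cortex TXNIP rose, at 57.3, 54.02 and 54.1 CPM against 45.7, 48.6 and 51 CPM (0.21 ± 0.04, adjusted p = 0.00176), and 7.95% of all genes rose by more. Under the shared spread of 54 libraries these adjusted p-values were 0.0737, 0.0521 and 0.351. Cnidii Rhizoma gave 46.9, 47.1 and 44.4 CPM against 42.4, 44.2 and 47.7 CPM, overlapping groups whose change of 0.09 ± 0.04 was not called (adjusted p = 0.147) except without low replicate 3 (0.13, adjusted p = 0.0387). Angelicae Gigantis Radix gave 47.8 and 48.7 CPM against 46.4 and 44.2 CPM (0.11 ± 0.05, adjusted p = 0.427).

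In order of mean level, the Astragali Radix high group led at 118 ± 19.04 CPM (SD, n = 3), followed by Cinnamomi Cortex high at 55.1 ± 1.85 CPM. Neither overlapped its next neighbour. At the other end, Rehmanniae Radix Preparata high (35.3 ± 0.88 CPM) and Paeoniae Radix high (34.95 ± 1.75 CPM) overlapped each other and lay clear of the group above them, Paeoniae Radix low. Of the 18 neighbouring pairs in this order, 15 overlapped. The vehicle, at 49.3, 47.0 and 44.7 CPM, overlapped both its neighbours.

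ARRDC4 (ENSG00000140450, chr15:97960698-97973838, plus strand) rose most of all members, and did so with Astragali Radix. Its Astragali Radix high libraries were at 57.2, 68.3 and 83.9 CPM, against 7.56, 8.92 and 8.26 CPM at the low dose and 8.98, 6.81 and 8.22 CPM at the medium dose. No library of any other group exceeded 11.8 CPM, reached at the Cnidii Rhizoma medium dose. The change was 3.47 ± 0.24 (adjusted p = 0.000316), 11.1-fold, with 1.96% of all genes rising by more. It stayed between 3.25 and 3.63 when any library was left out and was 3.08 by library totals.

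With Cnidii Rhizoma the ARRDC4 libraries were at 10.4, 10.8 and 9.84 CPM at the high dose and 8.20, 8.81 and 8.51 CPM at the low dose. The groups did not overlap, and the change was 0.33 ± 0.11 (adjusted p = 0.0184), with 9.41% of all genes rising by more. That call was lost without Cnidii Rhizoma high replicate 2 (adjusted p = 0.0733), without low replicate 1 (0.0647) and by library totals (0.0539). Cinnamomi Cortex gave a change of like size, from 7.47, 8.87 and 8.69 CPM to 10.3, 9.88 and 10.5 CPM, with no overlap, that missed the threshold (0.31 ± 0.10, adjusted p = 0.0629). It passed with the replicate number as a block (0.0493) and without the filter on low counts (0.029). In Paeoniae Radix and Rehmanniae Radix Preparata, the extracts in which TXNIP fell, the ARRDC4 changes were -0.08 ± 0.11 and -0.11 ± 0.11 and were not called. Of the 18 neighbouring groups in the order of ARRDC4 levels, 17 overlapped, and only Astragali Radix high stood clear.

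SLC2A1 (ENSG00000117394, chr1:42925375-42959176, minus strand) was called with 4 extracts and only upward. The Astragali Radix high libraries were at 904, 947.5 and 786 CPM, against 519.8, 493 and 491 CPM at the low dose. The medium dose, at 559.8, 548 and 541 CPM, lay between them without overlap. The change from the low dose was 1.17 ± 0.14 at the high dose (adjusted p = 0.0013, and 0.81 by library totals), where 12.3% of all genes rose by more. It was 0.19 ± 0.03 at the medium dose (adjusted p = 2.51e-05). SLC2A1 was raised at a dose at which TXNIP (-0.07) and ARRDC4 (0.01) were not called.

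The Paeoniae Radix high libraries had SLC2A1 at 688, 682 and 658 CPM, against 495, 481 and 484 CPM at the low dose and 518, 509 and 519 CPM at the medium dose. The high dose lay above every group but Astragali Radix high, and its change from the low dose was 0.49 ± 0.03 (adjusted p = 7.94e-15), with 2.48% of all genes rising by more. Rehmanniae Radix Preparata high gave 569, 559.5 and 541 CPM against 505, 498 and 492 CPM at the low dose, a smaller rise without overlap. The change was 0.18 ± 0.03 (adjusted p = 0.000796, and 0.144 under the shared spread of 54 libraries), with 8.98% of all genes rising by more. Cnidii Rhizoma gave 532, 518 and 520.4 CPM against 513, 506 and 507 CPM (0.09 ± 0.03, adjusted p = 0.0423), with 30.6% of all genes rising by more. This call was lost without any of its 6 libraries (adjusted p = 0.0544 to 0.144). Cinnamomi Cortex (0.03 ± 0.03) and Angelicae Gigantis Radix (0.11 ± 0.04) were not called.

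**Figure D2:**
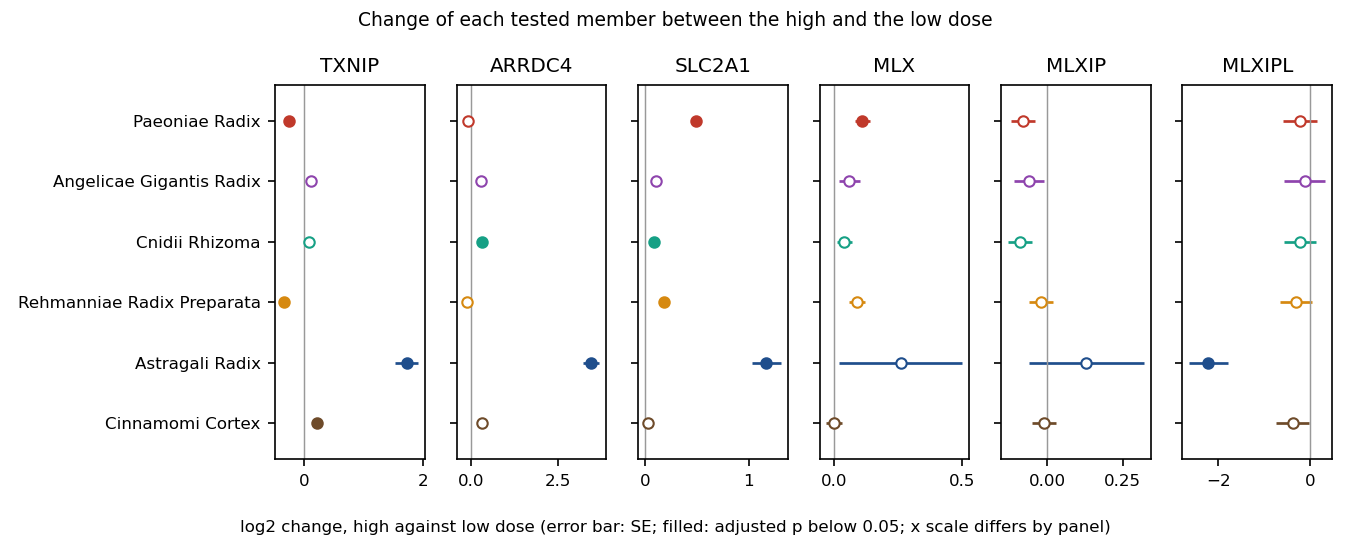
Log2 change of each tested member between the high and the low dose, by extract, with the SE. Filled points have an adjusted p below 0.05 and the x scale differs by panel. TXNIP lies on both sides of 0, SLC2A1 is at 0.03 or above in every extract, and Astragali Radix has the widest changes.

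MLX (ENSG00000108788, chr17:42567068-42573239, plus strand), the shared partner, was nearly level, from 108 to 123 CPM in every library outside the Astragali Radix high group. Its single call was with Paeoniae Radix, at 118.5, 121.7 and 116.1 CPM against 108.4, 114.6 and 110.2 CPM (0.11 ± 0.03, adjusted p = 0.02), with 17.5% of all genes rising by more. This call was lost in 4 of the 6 fits that left out a library, with adjusted p up to 0.0975, in the fit of the 2 groups alone (0.0896) and by library totals (0.059). The Astragali Radix high libraries were at 77.9, 111 and 130.5 CPM, wider than all other groups together, and the change of 0.26 ± 0.24 was not called (adjusted p = 0.421; -0.13 by library totals), although it was in the fit of 54 libraries (0.24, adjusted p = 0.013).

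MLXIP (ENSG00000175727, chr12:122078722-122147347, plus strand), the MondoA gene, was called in none of the 37 comparisons of the main analysis. Its Astragali Radix high libraries ran the other way from MLX, at 187, 149 and 103.3 CPM, and the low dose libraries were at 172, 168 and 172 CPM (0.13 ± 0.19, adjusted p = 0.615; -0.22 by library totals, and 0.29 with an adjusted p of 0.0476 without high replicate 3). The mitochondrial share of the same 3 libraries was 1.99%, 6.72% and 7.82%, and its part in the spread was not tested. With Cnidii Rhizoma the MLXIP libraries were at 142.5, 153 and 153 CPM against 160, 170.1 and 165 CPM, groups without overlap, and the change of -0.09 ± 0.04 (adjusted p = 0.114) was called by library totals (-0.14, adjusted p = 0.0075).

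MLXIPL (ENSG00000009950, chr7:73593194-73624543, minus strand), the ChREBP gene, fell with Astragali Radix from a low base. The low dose libraries held 17, 28 and 25 counts (0.579, 0.976 and 0.868 CPM), the medium dose 4, 7 and 13 counts (0.154, 0.255 and 0.451 CPM) and the high dose 2, 4 and 2 counts (0.112, 0.181 and 0.0976 CPM). The low dose lay above the others, and the medium and high doses overlapped. The changes from the low dose were -1.40 ± 0.38 at the medium dose (adjusted p = 0.00799) and -2.21 ± 0.42 at the high dose (adjusted p = 0.00684). The medium call was lost without Astragali Radix medium replicate 1 (-1.12, adjusted p = 0.0711). The vehicle libraries, with 9, 7 and 11 counts (0.427, 0.305 and 0.476 CPM), lay below the Astragali Radix low dose, and against them the medium dose was not called and the high dose was too low to be tested. MLXIPL was closest to its detection limit in the libraries with the highest TXNIP and ARRDC4.

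**Figure D3:**
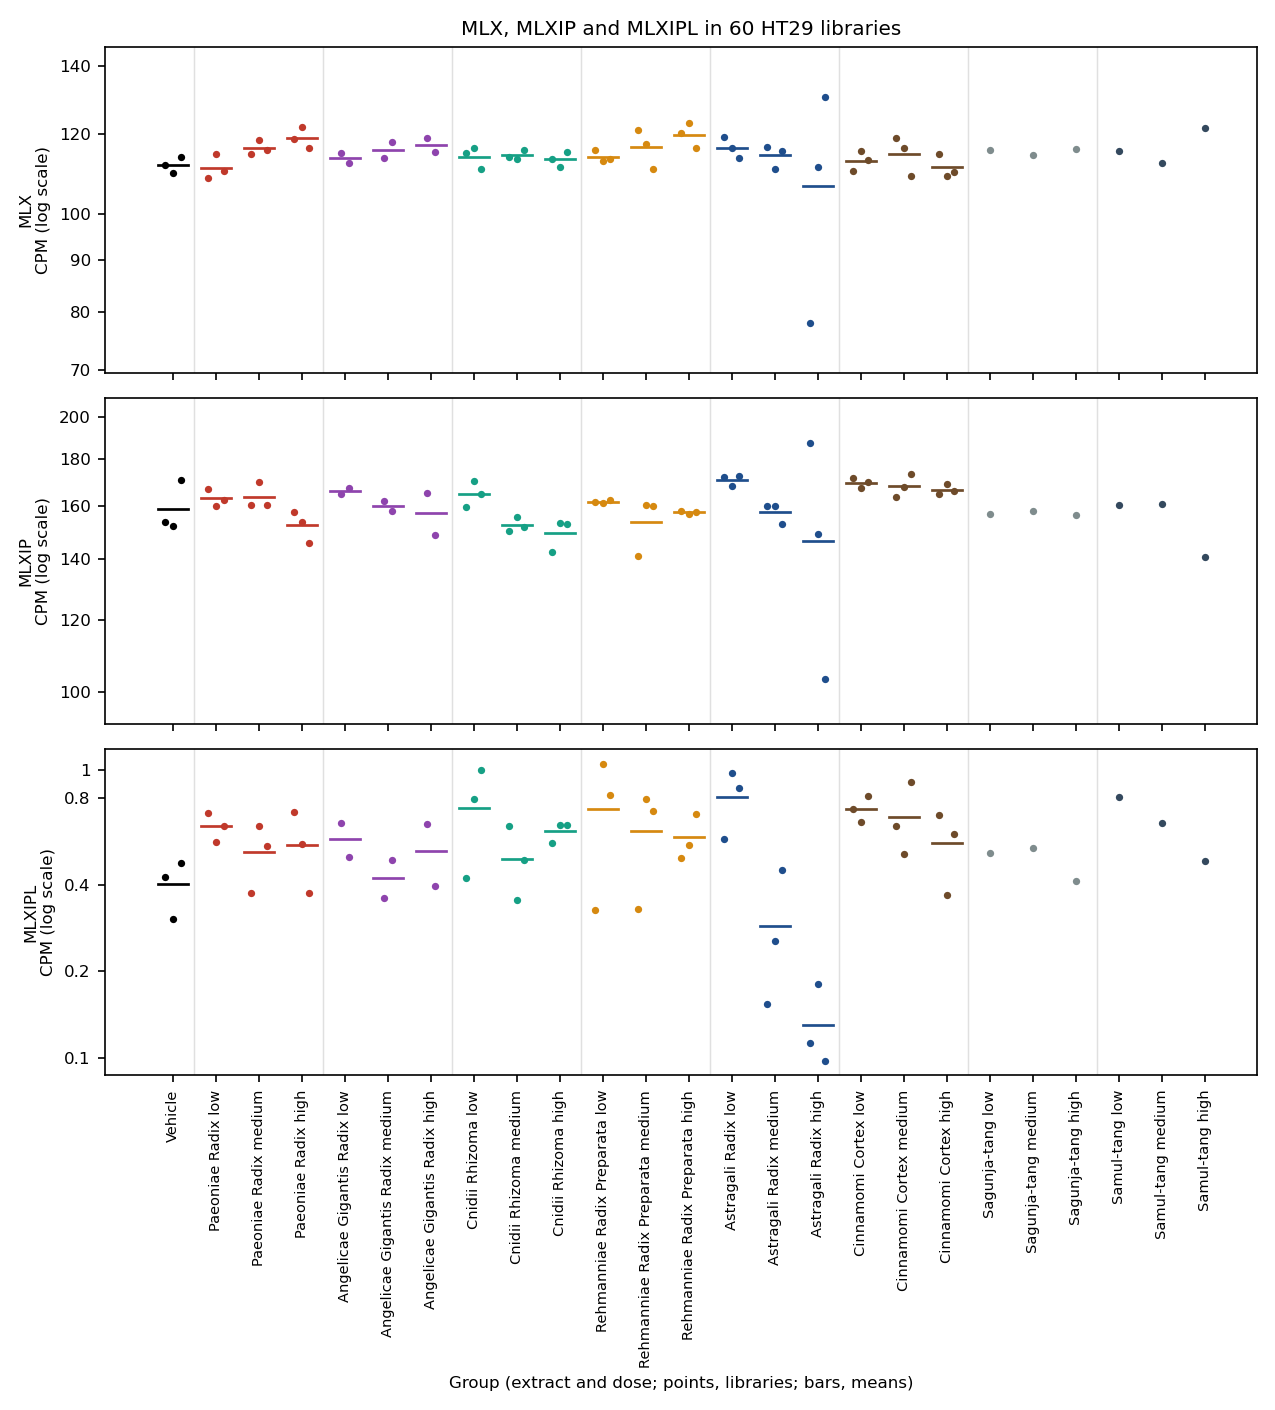
MLX, MLXIP and MLXIPL in CPM (log scale) by group, with single libraries as points and group means as bars. MLX and MLXIP spread from 77.9 to 130.5 and from 103.3 to 187 CPM among the Astragali Radix high libraries, and MLXIPL is lowest at the Astragali Radix medium and high doses.

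The medium dose against the low dose gave 2 member calls in all, SLC2A1 and MLXIPL with Astragali Radix, where 16.5% of all genes were called. edgeR called 0 members with Paeoniae Radix (0.403% of all genes called), Cnidii Rhizoma (3.11%) and Cinnamomi Cortex (0.00%), in each of which 1 member had an unadjusted p under 0.05. It called 0 with Angelicae Gigantis Radix (0.00%) and Rehmanniae Radix Preparata (0.00%), where 0 members had such a p, and DESeq2 called 0 in all 5 of these comparisons.

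Against the vehicle, all comparisons share the same 3 control libraries. At the high dose 10 member values were called, 3 each with Paeoniae Radix (27.1% of all genes called), Rehmanniae Radix Preparata (22.6%) and Astragali Radix (42.3%) and 1 with Cinnamomi Cortex (26.4%). TXNIP differed from the vehicle by -0.45 ± 0.05 with Paeoniae Radix, by -0.45 ± 0.05 with Rehmanniae Radix Preparata, by 1.64 ± 0.20 with Astragali Radix and by 0.19 ± 0.04 with Cinnamomi Cortex (adjusted p = 4.56e-10, 6.42e-10, 0.0012 and 0.000732). SLC2A1 was higher by 0.42 ± 0.03, 0.13 ± 0.03 and 1.13 ± 0.15 with the first 3 of these extracts (adjusted p = 4.36e-13, 0.00291 and 0.00169). ARRDC4 was higher by 3.16 ± 0.26 with Astragali Radix (adjusted p = 0.000392). It was lower by about as much with Paeoniae Radix (-0.40 ± 0.11) as with Rehmanniae Radix Preparata (-0.41 ± 0.11), although those libraries overlapped the vehicle's 11.0, 10.5 and 7.88 CPM. edgeR and DESeq2 called 0 members with Angelicae Gigantis Radix (20.5%), where 0 had an unadjusted p under 0.05, and with Cnidii Rhizoma (38.3%), where 2 had.

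At the medium dose 7 member values were called against the vehicle, 1 with Paeoniae Radix (21.6% of all genes called), 2 with Rehmanniae Radix Preparata (16.9%), 3 with Astragali Radix (34.8%) and 1 with Cinnamomi Cortex (25.1%). Angelicae Gigantis Radix (19.4%) and Cnidii Rhizoma (27.9%) gave 0 with edgeR and DESeq2, with 1 and 2 unadjusted p under 0.05. TXNIP was lower by like amounts, -0.15, -0.16 and -0.14, with Paeoniae Radix, Rehmanniae Radix Preparata and Astragali Radix. At the low dose 7 were again called, 2 with Paeoniae Radix (26.0%), 1 with Angelicae Gigantis Radix (20.5%), 1 with Cnidii Rhizoma (21.4%), 2 with Rehmanniae Radix Preparata (24.0%) and 1 with Astragali Radix (22.5%). Cinnamomi Cortex (19.5%) gave 0 with either tool and 3 unadjusted p under 0.05. All 7 were lower values of TXNIP (-0.20 to -0.12) or ARRDC4 (-0.47 to -0.30). These counts turned on single vehicle libraries. Without vehicle replicate 1 the medium count was 3 and the low count 2, without replicate 2 the low count was 2, and without replicate 3, the lowest of the vehicle libraries in TXNIP, ARRDC4 and SLC2A1, the low count was 12.

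Differences between extracts were tested on the change from low to high dose at matched doses, for 6 pairs of extracts and for Astragali Radix against Cnidii Rhizoma. TXNIP set Paeoniae Radix and Rehmanniae Radix Preparata apart from Cnidii Rhizoma and Cinnamomi Cortex. Its change differed by -0.34 ± 0.06 between Paeoniae Radix and Cnidii Rhizoma (adjusted p = 7.88e-05, with 15.2% of all genes and 2 members called) and by -0.46 ± 0.06 between Paeoniae Radix and Cinnamomi Cortex (adjusted p = 2.15e-06, with 4.20% and 2 members). It differed by 0.42 ± 0.06 between Cnidii Rhizoma and Rehmanniae Radix Preparata (adjusted p = 2.04e-06, with 12.3% and 1 member). The difference between Rehmanniae Radix Preparata and Cinnamomi Cortex, -0.53 ± 0.06 (adjusted p = 2.59e-07), was 1 of 49 called genes in that comparison (0.295%). Between Paeoniae Radix and Rehmanniae Radix Preparata the TXNIP difference of 0.08 ± 0.06 was not called.

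The SLC2A1 change set Paeoniae Radix apart from the same extracts and from Rehmanniae Radix Preparata. Its rise was larger there by 0.40 ± 0.05 than with Cnidii Rhizoma (adjusted p = 3.11e-09), by 0.32 ± 0.05 than with Rehmanniae Radix Preparata (adjusted p = 1.72e-05, the 1 member called, with 1.78% of all genes) and by 0.46 ± 0.05 than with Cinnamomi Cortex (adjusted p = 1.26e-09). Between Cnidii Rhizoma and Cinnamomi Cortex edgeR and DESeq2 called 0 members (13.4% of all genes), and 0 had an unadjusted p under 0.05. Astragali Radix exceeded Cnidii Rhizoma by 3.13 ± 0.22 for ARRDC4 (adjusted p = 3.04e-06), by 1.62 ± 0.19 for TXNIP (adjusted p = 7.55e-05) and by 1.09 ± 0.12 for SLC2A1 (adjusted p = 5.52e-05). MLXIPL fell by more there, by 2.00 ± 0.56 on the log2 scale (adjusted p = 0.0159). These are 4 members called beside 37.9% of all genes.

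**Figure D4:**
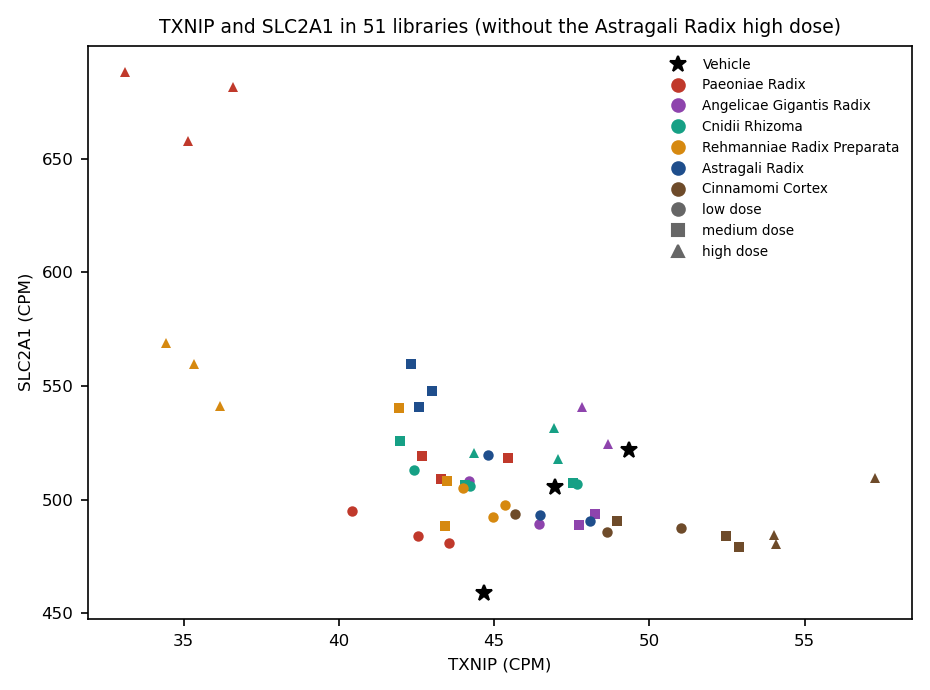
TXNIP against SLC2A1 in CPM, 1 point a library, for the 51 libraries without the Astragali Radix high dose. Colour gives the extract and shape the dose. Paeoniae Radix and Rehmanniae Radix Preparata high lie at the upper left, with low TXNIP and high SLC2A1, and Cinnamomi Cortex lies at the lower right.

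Across the 18 replicated groups without Astragali Radix high, the log2 mean levels of TXNIP and SLC2A1 had a Pearson r of -0.75 (Spearman -0.59), a description over groups that share a cell line and a library protocol. TXNIP and ARRDC4 had 0.62, ARRDC4 and SLC2A1 -0.33, and MLX and SLC2A1 0.65. Of these groups, 2 high doses had the lowest TXNIP and the highest SLC2A1. They were Paeoniae Radix (TXNIP 34.95 and SLC2A1 676 CPM) and Rehmanniae Radix Preparata (TXNIP 35.3 and SLC2A1 557 CPM). The correlation of TXNIP with SLC2A1 without these groups was not computed. The Astragali Radix high dose, with TXNIP, ARRDC4 and SLC2A1 all raised, lay outside the inverse pattern of TXNIP and SLC2A1. Among 10489 genes at 5 CPM or more, those most like TXNIP over the same groups were PDIK1L and THUMPD1 (r = 0.74 each), ANGEL2 (0.72) and CHCHD7 (0.70). Those most like ARRDC4 were SUPV3L1 (0.89), LTV1 (0.83), PPID (0.81) and ZNF436 (0.80). SLC2A1 was most like ADAM19 and LRRC8A (0.92 each), PHLDA1 (0.89) and ITGA3 (0.88).

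The other alpha-arrestins and beta-arrestins gave 5 tested genes of 8. With Astragali Radix 2 rose and 0 fell, beside 21.9% and 18.3% of all genes, with a median change of 0.34 against 0.02 over all genes. ARRDC3, an adaptor that directs receptors to degradation, was at 173 CPM on average at the high dose against 17.5 CPM at the low dose (3.69 ± 0.22, adjusted p = 0.000259), a larger change than that of ARRDC4. ARRDC2 went from 18.1 to 36.4 CPM (1.38 ± 0.18, adjusted p = 0.00191). ARRDC3 also rose with Cnidii Rhizoma (0.54 ± 0.06, adjusted p = 1.01e-09) and Paeoniae Radix (0.41 ± 0.06, adjusted p = 6.54e-06), where ARRDC4 changed by 0.33 and -0.08. The beta-arrestin ARRB1 fell with Cnidii Rhizoma (-0.26 ± 0.06, adjusted p = 0.00113). No member of the list was called by edgeR or DESeq2 with the other 3 extracts. Of all genes edgeR called 1.20% with Angelicae Gigantis Radix, 1.43% with Rehmanniae Radix Preparata and 6.08% with Cinnamomi Cortex.

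Among 15 other hexose and sodium-coupled sugar transporters, 10 were tested (9 with Astragali Radix high), and the calls were nearly all downward. Of all genes 18.3% were called lower with Astragali Radix, 11.6% with Cnidii Rhizoma, 4.06% with Paeoniae Radix and 2.81% with Cinnamomi Cortex. Whether the list departs from these shares was not tested. SLC5A1, the sodium-glucose transporter SGLT1 of the intestinal brush border, fell with Astragali Radix (15.1 to 5.37 CPM, -1.10 ± 0.26, adjusted p = 0.0156), Cnidii Rhizoma (-0.53 ± 0.08, adjusted p = 2.13e-06) and Cinnamomi Cortex (-0.30 ± 0.08, adjusted p = 0.0131). SLC5A9, its relative SGLT4, fell with Astragali Radix (1.61 to 0.144 CPM, -3.02 ± 0.74), Cnidii Rhizoma (-1.46 ± 0.25) and Paeoniae Radix (-1.05 ± 0.23), with adjusted p of 0.0173, 7.13e-06 and 0.0015. SLC2A10 (GLUT10) fell with Astragali Radix (-1.31 ± 0.41) and Paeoniae Radix (-0.88 ± 0.18), and SLC2A6 (GLUT6) with Cnidii Rhizoma (-0.51 ± 0.08) and Cinnamomi Cortex (-0.38 ± 0.07). The single rise was SLC2A8 (GLUT8) with Astragali Radix (10.3 to 14.2 CPM, 0.83 ± 0.19, adjusted p = 0.0124), which was not called by library totals (0 higher and 4 lower). The Astragali Radix calls of this list were also weak to single libraries, with 0 lower without low replicate 2 or 3, 1 lower without high replicate 2, 0 higher without any low replicate and 2 higher without high replicate 3. With Cinnamomi Cortex 1 fell in place of 2 without high replicate 1 or 2 or low replicate 2. The list median was -0.06 with Astragali Radix, -0.10 with Cnidii Rhizoma, -0.12 with Paeoniae Radix and -0.26 with Cinnamomi Cortex, against -0.01 to 0.02 over all genes. With Paeoniae Radix, where SLC2A1 rose, 0 of these 10 were called higher, beside 5.44% of all genes. A list of this size cannot be told from that share.

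Textbook targets of ChREBP and MondoA, 23 genes besides the members, did not move as a block with TXNIP. With Astragali Radix 7 of 18 tested rose and 2 fell, beside 21.9% and 18.3% of all genes. The list median was 0.01, against 0.02 over all genes. FGF21, counted among the 7, passed the filter on low counts through the high dose alone. FGF21 could therefore only be called higher. RGS16, a G protein regulator, rose from 3.93 to 24.6 CPM (3.06 ± 0.47), GCKR, the glucokinase regulator, by 2.85 ± 0.49, and the repressor KLF10 from 49.9 to 135 CPM (1.82 ± 0.23), with adjusted p of 0.00301, 0.00472 and 0.00155, and the related KLF11 by 1.65 ± 0.50 (adjusted p = 0.0348). The hormone gene FGF21 had 10, 11 and 55 counts at the high dose and 0 at the low dose, at least 36.4-fold higher against a floor of 3 counts over the low group, and at least 15.2-fold without high replicate 3. The 2 that fell, named after their values were seen, were the fatty acid synthesis genes ELOVL6 (-1.37 ± 0.27, adjusted p = 0.00809) and ACACA (-0.89 ± 0.27, adjusted p = 0.0365). By library totals 6 rose and 5 fell, and 4 or 5 fell without high replicate 2 or 3 and 1 without any other library. With Cnidii Rhizoma 8 of 17 rose and 4 fell (12.1% and 11.6% of all genes, median 0.14 against 0.00). GCKR (2.52 ± 0.28), ME1 (1.01 ± 0.03), TKT (0.63 ± 0.03) and ELOVL6 (0.27 ± 0.04) led, with FASN falling (-0.27 ± 0.04). Without Cnidii Rhizoma high replicate 1, 2 fell. TKT is an enzyme of the pentose phosphate pathway, ME1 is malic enzyme, and both are also known NRF2 targets.

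With Paeoniae Radix 7 of 17 targets rose and 0 fell (5.44% and 4.06% of all genes, median 0.11 against -0.01). With Rehmanniae Radix Preparata 6 rose and 0 fell (0.813% and 0.620% of all genes, median 0.09 against 0.00), while TXNIP itself fell with both extracts. In Paeoniae Radix these were led by ME1 (0.34 ± 0.03), SCD (0.32 ± 0.04), KLF10 (0.28 ± 0.05), HK2 (0.26 ± 0.05) and TKT (0.23 ± 0.03). In Rehmanniae Radix Preparata ME1 (0.23 ± 0.03), FASN (0.21 ± 0.04), HK2 (0.20 ± 0.05), KLF10 (0.20 ± 0.05) and TKT (0.18 ± 0.03) led. With Cinnamomi Cortex, where TXNIP rose, 2 targets rose, RGS16 (0.46 ± 0.12) and HK2 (0.25 ± 0.05), and 3 fell, SCD (-0.40 ± 0.04), FASN (-0.19 ± 0.04) and ACACA (-0.10 ± 0.03). Of all genes 3.27% rose and 2.81% fell with that extract. Angelicae Gigantis Radix gave 2 higher, ME1 (0.20 ± 0.04) and TKT (0.19 ± 0.04), and 1 lower, SCD (-0.26 ± 0.04), with 1 higher without high or low replicate 3. There 0.680% of all genes rose and 0.524% fell. Under the shared spread of 54 libraries the counts were 2 higher for Paeoniae Radix, 4 for Cnidii Rhizoma, 1 for Cinnamomi Cortex and 0 for the other 2 of these extracts, with 0 lower in all 5. Leaving out any library gave 5 to 8 higher for Paeoniae Radix and 3 to 5 for Rehmanniae Radix Preparata, with 3 without its low replicate 2. For Cinnamomi Cortex 1 was higher without high replicate 1 or low replicate 1 or 3.

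The basic helix-loop-helix network around MLX and MAX, 10 genes with 9 tested, had calls in both directions with Astragali Radix, Paeoniae Radix and Cnidii Rhizoma. With Astragali Radix 2 rose and 3 fell (median -0.29 against 0.02), where 21.9% of all genes rose and 18.3% fell, with Paeoniae Radix 2 rose and 2 fell (5.44% and 4.06% of all genes), and with Cnidii Rhizoma 2 rose and 1 fell (12.1% and 11.6%). With Astragali Radix the repressor MXD1 (38.0 to 100.5 CPM, 1.77 ± 0.20) and the common partner MAX (0.74 ± 0.14) rose, and MGA (-1.25 ± 0.40), MXD3 (-0.84 ± 0.18) and MYC (266 to 116 CPM, -0.83 ± 0.18) fell, with adjusted p of 0.00116, 0.00716, 0.0416, 0.011 and 0.011. MXD4 fell with Paeoniae Radix (-0.28 ± 0.05), Cnidii Rhizoma (-0.18 ± 0.05), Rehmanniae Radix Preparata (-0.22 ± 0.04) and Cinnamomi Cortex (-0.31 ± 0.04). MYCL fell in the extracts in which TXNIP fell. Its change was -0.40 ± 0.12 with Paeoniae Radix and -0.54 ± 0.12 with Rehmanniae Radix Preparata (adjusted p = 0.0257 and 0.00581). MXD4 and MYCL were the calls of this list with Rehmanniae Radix Preparata, where 0.620% of all genes fell. MXD4 was the only call with Cinnamomi Cortex, where 2.81% fell. MYC rose with Cnidii Rhizoma (0.35 ± 0.04, adjusted p = 3.08e-09), as did the repressor MXI1 (0.36 ± 0.05), and MXD1 (0.21 ± 0.06) and MYC (0.12 ± 0.04) rose with Paeoniae Radix. These counts were sensitive to single libraries: with Astragali Radix 0 or 1 fell without any of its low replicates, with Paeoniae Radix 0 rose without high replicate 1 or 2 or low replicate 3, and with Rehmanniae Radix Preparata 0 fell without low replicate 2.

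TXNIP binds thioredoxin, and TXNRD1, the cytosolic thioredoxin reductase, rose with all 6 extracts, by 2.38 ± 0.23 with Astragali Radix, 1.26 ± 0.05 with Cnidii Rhizoma and 0.24 to 0.35 with the others (adjusted p of 0.00146 or lower). In the shared spread of 54 libraries the last 4 were lost (adjusted p = 0.0581 to 1), and the Angelicae Gigantis Radix call was also lost without its high replicate 3. TXN, thioredoxin itself, rose with Astragali Radix (382 to 953 CPM, 1.70 ± 0.26, adjusted p = 0.00297) and Cnidii Rhizoma (0.66 ± 0.06, adjusted p = 6.16e-12). Of all genes 21.9% rose with Astragali Radix and 12.1% with Cnidii Rhizoma. Another of the thioredoxin genes listed was called lower with Cnidii Rhizoma, where 11.6% of all genes fell. TXN and TXNIP rose together with Astragali Radix, and with Cnidii Rhizoma the TXNIP change was 0.09 ± 0.04. Of the genes that phosphorylate glucose or handle glucose 6-phosphate, 6 of 6 tested rose with Cnidii Rhizoma, beside 12.1% of all genes, and 4 by library totals. HKDC1 (0.30), HK2 (0.22), GPI (0.18), G6PC3 (0.15) and HK1 (0.12) led. HK2, the inducible hexokinase, rose by 0.20 to 0.26 with Paeoniae Radix, Rehmanniae Radix Preparata, Cinnamomi Cortex and Cnidii Rhizoma. Of all genes 5.44%, 0.813%, 3.27% and 12.1% rose with these extracts in turn. With Cinnamomi Cortex GPI also rose (0.13 ± 0.03, adjusted p = 0.0054). HKDC1 was called lower there (-0.15 ± 0.05, adjusted p = 0.0422), beside 2.81% of all genes. With Astragali Radix the hexokinase-like HKDC1 rose from 31.7 to 80.7 CPM (1.68 ± 0.31, adjusted p = 0.00599). The ligases and AMPK subunits that control TXNIP protein had 2 calls there, beside 40.1% of all genes. These were PRKAA1 (-1.09 ± 0.20) and NEDD4L (0.73 ± 0.20), and both genes were called lower with Cnidii Rhizoma (-0.11 and -0.10). With Paeoniae Radix NEDD4L missed the threshold (-0.11 ± 0.04, adjusted p = 0.0639), and 1 gene of this list was called lower there with the replicate number as a block. NEDD4L was not called with Astragali Radix without any of its low replicates, and with Cnidii Rhizoma 0 of the 2 were called without low replicate 2 or 3.

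**Figure D5:**
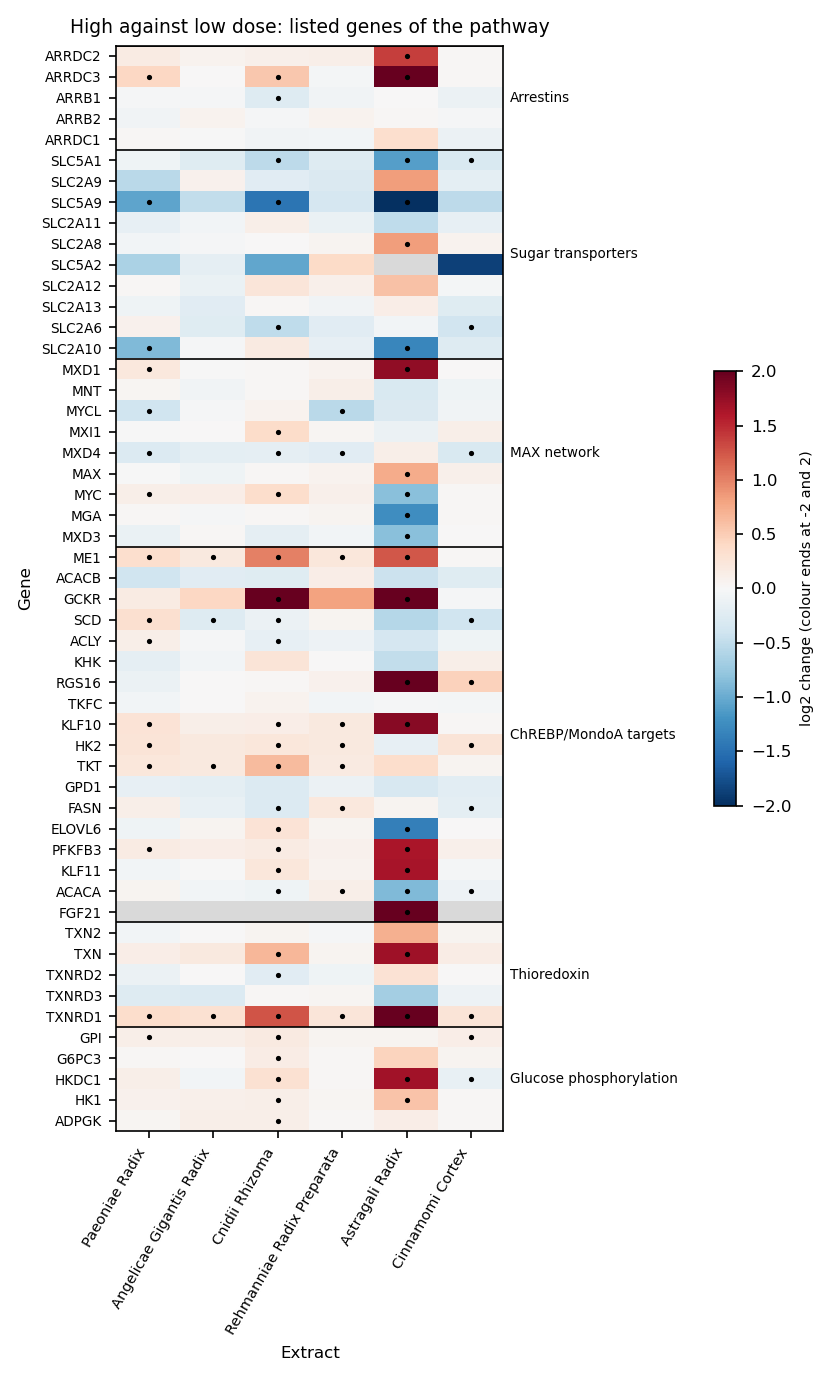
Log2 change between the high and the low dose of 52 listed genes in the 6 extracts. Red is higher and blue lower, colour ends at -2 and 2, black dots mark an adjusted p below 0.05, and grey cells were not tested. The Astragali Radix column has the deepest colours, and TXNRD1 carries a dot in every column.

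The formulas had 1 library a dose and no test, and intervals are exact 95% Poisson intervals that cover counting error only. TXNIP in Sagunja-tang was at 44.8 CPM (42.4 to 47.3) at the high, 43.2 CPM at the medium and 47.4 CPM (44.8 to 50) at the low dose, and in Samul-tang at 41.2 CPM (38.8 to 43.7), 45.3 CPM and 42.8 CPM (40.3 to 45.4). These values lay inside the range of the single extracts, and the intervals of high and low overlapped in both formulas. ARRDC4 lay between 7.84 and 9.73 CPM in all 6 libraries. SLC2A1 was at 563 CPM (554 to 572) at the Samul-tang high dose, above the 520 CPM (511 to 528) of its low dose, and at 528 CPM (519 to 536) in Sagunja-tang high against 502 CPM (494 to 511) in low. MLXIP was lowest in Samul-tang high, at 141 CPM (136 to 145) against 160 CPM (155 to 165) in low. MLXIPL had 12 to 21 counts a library.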

How the data were processed

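RNA sequencing of HT29 cells gave expected counts per gene, which the authors deposited in a single table. The submitters' processing notes name FastQC 0.11.9, Trim Galore 0.6.5, STAR 2.7.3a, RSEM 1.3.3 and the builds hg38 and GRCh38. Annotation and strand setting: not given in the sources used here. Of 273 columns, 213 belonged to no library mapped here. Counts (8.78% not whole) were rounded. Names came from a supplied table (56558 entries) and GENCODE v29 (497).

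Tests used edgeR 4.0.16 in R 4.3.3 (TMM, filtering by group, quasi-likelihood F test, Benjamini-Hochberg). One fit held 51 libraries in 18 groups (16608 genes). Comparisons with Astragali Radix high held only the groups compared: 15236 genes against low, 14851 against vehicle, 15919 in 12 libraries against Cnidii Rhizoma. SE is the log2 change over the square root of F. The code was tested on simulated counts. Alternatives were a fit of 54 libraries, groups alone, library totals, no filter, a replicate block, DESeq2 1.42.0 and leaving out each library. Members and lists were chosen with earlier results of these data known. Named genes were the 7 members, up to 5 called genes of each list with the largest changes, and the 4 most alike genes. The deviations of same-numbered libraries correlated over 0.1 for every number in 3 of 17 pairs of groups (Paeoniae Radix high with low, 0.12 to 0.15, Cinnamomi Cortex high with low, 0.15 to 0.24, and medium with low, 0.11 to 0.30). The main fit did not take numbers as pairs, there or elsewhere, and only the replicate block did. All 48 correlations had a median of 0.05 and ranged from -0.28 to 0.30. The Astragali Radix high libraries were not among those checked. Overlapping and antisense genes cannot be told apart without the strand setting. A gene of the lists is not reported here.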

Additional observations from a re-analysis of the deposited data

Results flagged for a closer look

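These values were singled out because the change from the low to the high dose differed between extracts by a test of the difference itself (edgeR, adjusted over all genes). TXNIP differed by -0.34 between Paeoniae Radix and Cnidii Rhizoma, by -0.46 between Paeoniae Radix and Cinnamomi Cortex, by 0.42 between Cnidii Rhizoma and Rehmanniae Radix Preparata, by -0.53 between Rehmanniae Radix Preparata and Cinnamomi Cortex and by 1.62 between Astragali Radix and Cnidii Rhizoma. SLC2A1 differed by 0.40, 0.32 and 0.46 between Paeoniae Radix and, in turn, Cnidii Rhizoma, Rehmanniae Radix Preparata and Cinnamomi Cortex, and by 1.09 between Astragali Radix and Cnidii Rhizoma. For the last pair ARRDC4 differed by 3.13, and MLXIPL fell by 2.00 more on the log2 scale with Astragali Radix. All 11 stayed called under each alternative that was run.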

How the results depend on the processing

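Of 2815 values of single members under another setting, 2660 kept their call, 106 lost it, 49 gained one and 0 reversed. In addition 166 values without a call changed sign. The number of members called between the high and the low dose stayed at 4 to 5 for Astragali Radix and at 0 for Angelicae Gigantis Radix. For the others, with all 54 libraries in a single model it was 1 for Paeoniae Radix (3 in the main fit) and 0 for Cnidii Rhizoma (2), Rehmanniae Radix Preparata (2) and Cinnamomi Cortex (1). For Cnidii Rhizoma it was 1 without a filter, 1 by library totals, 1 with the groups alone and 0 to 2 when a library was left out. For Cinnamomi Cortex it was 2 without a filter and 2 with the replicate number as a replicate block, where ARRDC4 was gained (adjusted p = 0.0493). The replicate block lost no member call. In the other 2 comparisons whose same-numbered libraries correlated over 0.1 (Paeoniae Radix high and Cinnamomi Cortex medium, each against low) it changed no member call. Medium against low gave 1 with DESeq2 (main 2), which gave MLXIPL no adjusted p, and 1 to 2 when a library was left out. Medium against vehicle gave 1 with 54 libraries and 2 with the groups alone (main 7), and 3 to 10 when a library was left out. Low against vehicle gave 0 with 54 libraries, 3 by library totals and 2 with the groups alone (main 7), and 2 to 12 when a library was left out. High against vehicle (10, from 8 to 13) and the differences between extracts (11, from 11 to 13) moved less. Of 121 calls of listed genes, 1150 of 1407 values under other settings kept the call, 257 lost it and 0 reversed. The loss with 54 libraries goes with the wide spread of the Astragali Radix high libraries, which enter the shared estimate there. Depth limits MLXIPL (2 to 28 counts a library) and SLC2A3 (at most 1 count).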
